A study of Mus musculus with 19 samples.

Results

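The 7 mRNAs described here are those of the mitochondrial genome that encode subunits of respiratory complex I: mt-Nd1, mt-Nd2, mt-Nd3, mt-Nd4l, mt-Nd4, mt-Nd5 and mt-Nd6. They were picked by transcript identifier from the list of these subunits, and they are 7 of the 49932 transcripts that received at least 1 tag in any library. FMRP, the RNA-binding protein missing in fragile X syndrome, was mapped on RNA of the mouse hippocampal CA1 region by CLIP, in which ultraviolet light joins a protein to RNA it touches and the recovered RNA fragments are sequenced as tags. All libraries are labelled with the genotype Camk2a-Cre x Fmr1 cTag, in which Cre recombinase made from the Camk2a promoter, active mainly in excitatory neurons, switches on a tagged form of the endogenous FMRP. The opto libraries received AAV-ChR2, a viral vector for the light-gated channel channelrhodopsin-2, and the control libraries received AAV-Control. Both kinds came from acute slices at 30 min or 5 min after activation, dissected with cycloheximide, an inhibitor of translation elongation, and each of these 4 groups has 4 libraries. A further 3 libraries are named noCre in title and treatment, in conflict with their own genotype and cell type entries, which read as Cre-positive. The labels do not give animal ages, and they do not say whether replicates are separate animals, so p-values measure only the spread between these libraries.

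Complex I takes electrons from NADH, passes them to ubiquinone and pumps protons across the inner mitochondrial membrane. Its mitochondrially encoded subunits form the core of the membrane arm, and their mRNAs are made and translated inside mitochondria, whereas FMRP is known mainly as a regulator of cytoplasmic translation. Most of these mRNAs are cut from a long transcript of one strand of the mitochondrial genome, and mt-Nd6 is made from the other strand.

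The values are tags per transcript, and a transcript that a library does not list was taken as 0. Total tags ran from 20456 to 341445 in the 16 Cre-positive libraries and from 34 to 5557 in noCre, so levels are given as tags per 1000000 tags of the same library (CPM). A single library stood apart. Opto 30 min replicate 1, the shallowest Cre-positive library with 20456 tags, had the highest CPM of all 16 Cre-positive libraries for each of the 7 mRNAs, and results that rest on it are given with and without it. In bulk tissue of this kind fewer cells of a type, less RNA per cell and less binding per RNA cannot be told apart in such a share. The tissue label was not checked against cell type markers, because no table used here pairs the files' transcript identifiers with gene symbols.

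The subunits fall into groups by their place in the membrane arm. Mt-Nd1 (ENSMUST00000082392) encodes the subunit at the junction with the peripheral arm, next to the ubiquinone site, and lies on chromosome MT at positions 2751 to 3707 (957 bases) in the RefSeq annotation of the mm10 assembly, GRCm38.p6. The antiporter-like subunits, which carry proton channels, are encoded by mt-Nd2 (ENSMUST00000082396) at 3914 to 4951 (1038 bases), mt-Nd4 (ENSMUST00000082414) at 10167 to 11544 (1378 bases) and mt-Nd5 (ENSMUST00000082418) at 11742 to 13565 (1824 bases). The small subunits between them are encoded by mt-Nd3 (ENSMUST00000082411) at 9459 to 9806 (348 bases), mt-Nd4l (ENSMUST00000084013) at 9877 to 10173 (297 bases) and mt-Nd6 (ENSMUST00000082419) at 13552 to 14070 (519 bases). All 7 are protein-coding genes without introns. The mt-Nd4l and mt-Nd4 genes overlap by 7 bases and stand on a shared mRNA, and mt-Nd5 and mt-Nd6 overlap by 14 bases on opposite strands. How tags in shared bases, on the 2 strands or on near-identical transcripts were assigned is not given in the sources used here. Each of 2 members had a near copy among the other transcripts, found after the values were seen. Mt-Nd3 held 228 tags over the 16 libraries and ENSMUST00000188299 held 221, with equal counts in 10 of 16 libraries and a largest difference of 2 tags, and mt-Nd4l held 259 against 245 for ENSMUST00000088336, with equal counts in 9 of 16 libraries and a largest difference of 4. The values of mt-Nd3 and mt-Nd4l are uncertain for this reason.

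CLIP tags were found on all 7 mRNAs, which are described here before any comparison with the noCre background. In the 16 Cre-positive libraries they held 7330 tags together, from 88 to 1010 per library, and only mt-Nd3 was missed in a library, with 0 of 29396 tags in opto 30 min replicate 2, which allows a share of up to 0.0102%. Mt-Nd4 held 2298 of these tags, mt-Nd5 1812, mt-Nd2 1182, mt-Nd1 1031, mt-Nd6 520, mt-Nd4l 259 and mt-Nd3 228. Levels of different genes were compared per length, in CPM per 1000 bases. On that scale mt-Nd4 was the highest of the 7 in 14 of 16 libraries, with a median of 769, and it was above mt-Nd1, mt-Nd3, mt-Nd5 and mt-Nd6 in 16 of 16. Mt-Nd2 followed with a median of 497, above mt-Nd1 in 12 of 16 libraries and above mt-Nd5 in 13. The levels of mt-Nd6 (median 492), mt-Nd1 (491) and mt-Nd5 (447) had no steady order: mt-Nd1 was above mt-Nd6 in 9 of 16 libraries and above mt-Nd5 in 9, and mt-Nd6 was above mt-Nd5 in 9. Mt-Nd4l, with a median of 435, was below mt-Nd1 in 13 of 16 libraries, below mt-Nd6 in 11 and below mt-Nd5 in 9. Mt-Nd3 was the lowest in 10 of 16 libraries, with a median of 317, and it was below mt-Nd2 and mt-Nd6 in 15 and below mt-Nd4l in 11. The places of mt-Nd3 and mt-Nd4l in this order are uncertain, because each had a near copy and the assignment of shared tags is not given.

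**Figure D1:**
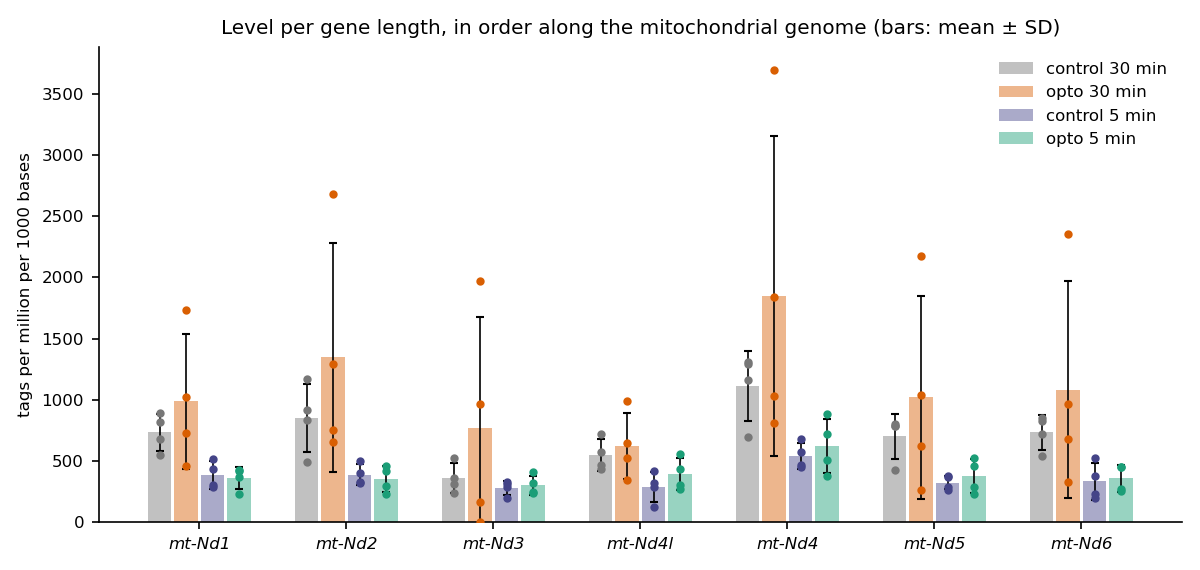
Tags per 1000000 tags per 1000 bases of gene length (vertical axis) for the 7 mRNAs in their order along the mitochondrial genome (horizontal axis); bars are group means, error bars the SD over 4 libraries (drawn from 0 upward) and points the libraries. Mt-Nd4 had the highest median per length, 769, and mt-Nd3 the lowest, 317, and opto 30 min replicate 1 is the highest point of every gene. The levels of mt-Nd3 and mt-Nd4l are uncertain because each had a near copy among the other transcripts.

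The make-up of the set was steadier than its level, most clearly for the well-tagged members. Mt-Nd4 made up 31.5% ± 2.48 (SD, n = 16) of the tags on the 7 mRNAs in a library, from 26.7% to 37.5%. Mt-Nd5 made up 24.3% ± 2.53 (SD, n = 16), from 15.9% to 26.9%. Mt-Nd2 made up 16.5% ± 2.62, mt-Nd1 13.9% ± 1.84 and mt-Nd6 7.08% ± 1.07 (SD, n = 16 each). Their ranges were 12.3% to 22.7%, 10.6% to 16.7% and 5.21% to 9.17%. The shares of mt-Nd4l and mt-Nd3 were 3.54% ± 1.35 and 3.26% ± 1.38 (SD, n = 16). These 2 varied widely for their size, from 1.80% to 7.31% and from 0% to 5.41%. Over the same libraries the summed level ran from 1761 to 15692 CPM, an 8.91-fold range with a coefficient of variation of 76.3%. Much of this range rests on opto 30 min replicate 1, since the next highest library, opto 30 min replicate 4, was at 7789.8 CPM. The coefficient of variation without replicate 1 was not computed. Mt-Nd4, the most tagged member, thus held close to the same fraction of the set in libraries that differed widely in how much of the set they held.

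The comparison of opto with control at 30 min asked whether light activation changed the share of FMRP tags on these mRNAs. The 7 summed held 15692, 2994, 4608 and 7789.8 CPM in opto replicates 1 to 4 and 5712, 3273, 5743 and 5577 CPM in control replicates 1 to 4. As a percent of all tags this was 0.777% ± 0.564 in opto and 0.508% ± 0.120 in control (SD, n = 4 each). The opto values lay on both sides of the control values, and opto was higher in 2 of 4 same-numbered pairs.

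**Figure D2:**
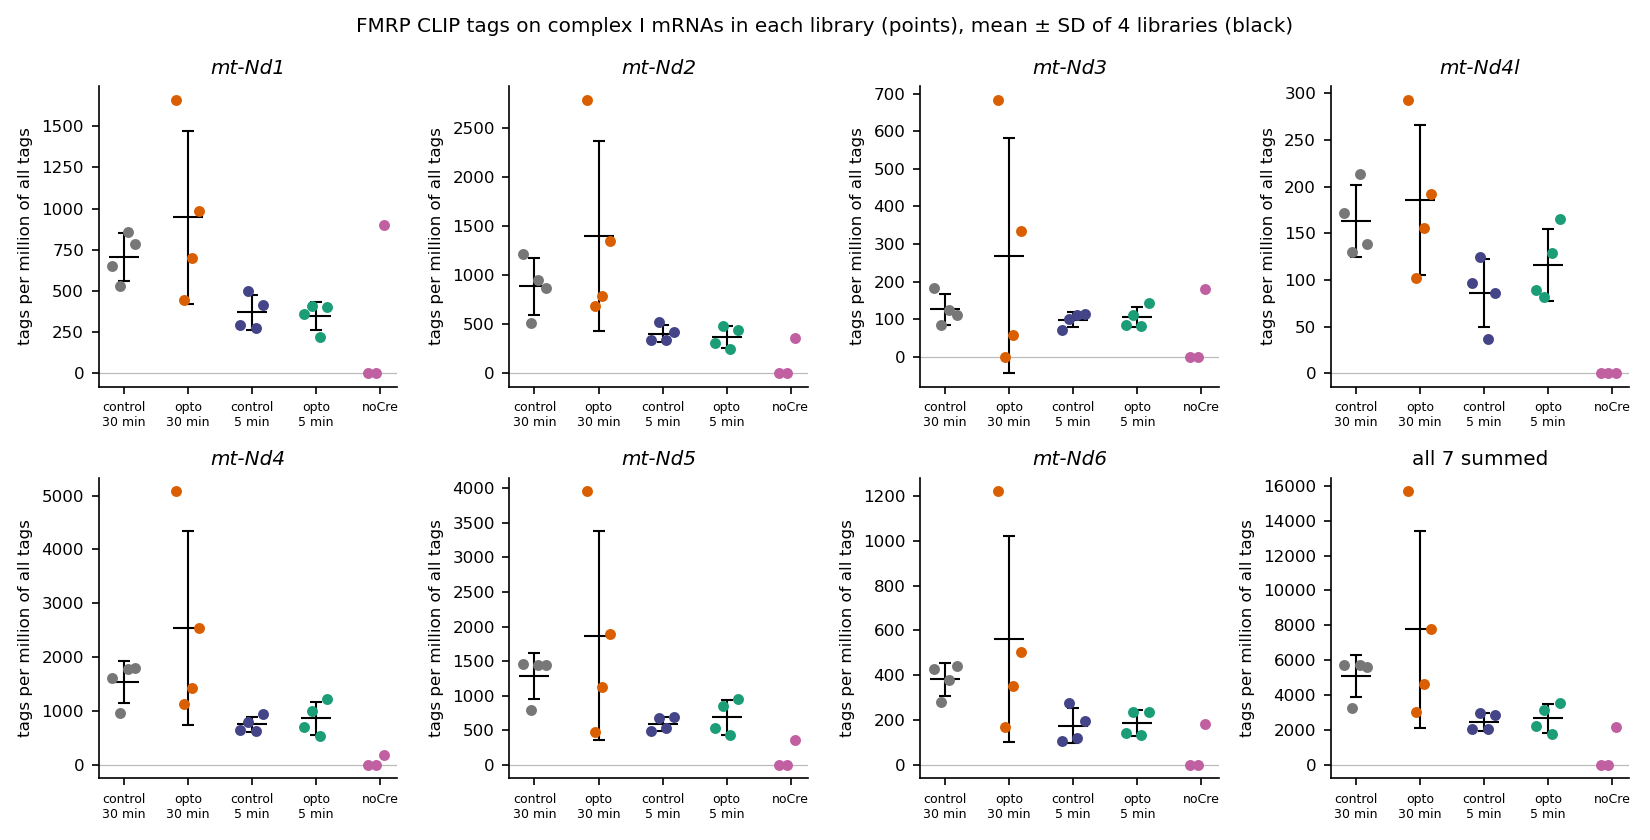
Tags per 1000000 of all tags (vertical axis) for each mRNA and for the 7 summed, by group (horizontal axis); points are libraries, and black marks show the mean ± SD of 4 libraries (not drawn for noCre, where replicates 1 and 2 held 0 tags). The 5 min libraries lie low and close together, from 1761 to 3557 CPM for the sum, and opto 30 min replicate 1 is the highest of the 16 Cre-positive libraries in every panel, at 15692 CPM for the sum.

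Among the antiporter-like subunits, mt-Nd4 had 5084, 1123, 1427 and 2541 CPM in the opto libraries and 1606, 956, 1779 and 1800.0 CPM in the controls. Mt-Nd5 had 3959.7, 476, 1131 and 1894 CPM in opto and 1459, 785, 1439 and 1436 CPM in control. Mt-Nd2 had 2786, 680.4, 787 and 1342 CPM in opto and 1213, 509, 952 and 867 CPM in control. In each of the 3, replicates 1 and 4 of opto lay above all controls, and replicate 2 lay below at least 3 of the 4 controls. The junction subunit mt-Nd1 had 1662, 442, 697 and 983 CPM in opto and 649.6, 530.0, 856 and 784 CPM in control. The small-subunit mRNA mt-Nd6 had 1222, 170.1, 353 and 503 CPM in opto and 429, 281, 376 and 442 CPM in control. Both showed the same order of the opto libraries, with replicate 1 highest and replicate 2 lowest. Mt-Nd3 ran from 0 to 684 CPM in opto, on 0 to 14 tags, and from 83.1 to 184 CPM in control. Mt-Nd4l ran from 102 to 293 CPM in opto, on 3 to 19 tags, and from 129.9 to 214 CPM in control. The groups overlapped for all 7 mRNAs, as they did for most transcripts: 1.43% of the 2871 tested transcripts did not overlap with opto higher and 3.41% with opto lower.

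None of the 7 passed the test at 30 min. Differences were fitted as log2 changes of the share with edgeR's quasi-likelihood test over 2871 transcripts, which included all 7 members, with TMM scaling and Benjamini-Hochberg adjustment, and the SE of a change is its size divided by the square root of the test's F value. Here 0 of 7 passed an adjusted p of 0.05 and 0 of 7 had an unadjusted p under 0.05, against 0.0348% of all tested transcripts that passed. DESeq2 and limma voom also called 0 of 7. All 7 estimates were above 0, from 0.09 for mt-Nd4l to 0.67 for mt-Nd3, with a median of 0.45 against -0.02 over all tested transcripts. The largest of the well-tagged members was mt-Nd4, at 0.66 (SE 0.32, edgeR adjusted p = 0.590). The direction rested on opto 30 min replicate 1: without it 5 of 7 estimates were below 0 and their median was -0.07, and with the library total as a covariate 6 of 7 were below 0 and their median was -0.16. The opto libraries of this time were also the shallowest of the 4 Cre-positive groups, with a geometric mean of 41825 tags against 140104 in their controls. In raw tags, with no scaling, all 7 were lower in opto, with a median of -1.22 against -1.46 over all tested transcripts.

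At 5 min the levels of the set in opto and control overlapped. The 7 summed held 2212, 3155, 1761 and 3557 CPM in opto and 2024, 2987, 2037 and 2853 CPM in control, or 0.267% ± 0.0828 and 0.248% ± 0.0517 of all tags (SD, n = 4 each). The highest and the lowest of the 8 were both opto libraries, and opto was higher in 3 of 4 same-numbered pairs. Mt-Nd4 had 701, 997, 525 and 1217 CPM in opto and 647, 797, 624 and 934 CPM in control. Mt-Nd5 had 526, 845, 427 and 957 CPM in opto and 480.3, 672, 532 and 689 CPM in control. Mt-Nd2 had 312, 478, 242 and 437 CPM in opto and 334, 523, 339 and 416 CPM in control. In these 3 mRNAs opto replicate 3 was the lowest of the 8 libraries, and replicates 2 and 4 were above the mean of their own group in both opto and control. Mt-Nd1 had 358, 407, 221 and 402 CPM in opto and 289.9, 498, 275 and 416 CPM in control. Mt-Nd6 had 140.2, 234, 134 and 236 CPM in opto and 105, 274, 119 and 196 CPM in control. For mt-Nd6 all 4 opto values lay inside the control range, and for mt-Nd1 opto replicate 3 lay below all controls and control replicate 2 above all opto libraries. Mt-Nd3 ran from 82.4 to 142 CPM in opto and from 70.3 to 115 in control, and mt-Nd4l from 81.4 to 165 in opto and from 36.7 to 124 in control, on 4 to 33 tags.

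The groups overlapped at 5 min for all 7 mRNAs, beside 0.871% of tested transcripts that did not overlap with opto higher and 1.32% with opto lower. In edgeR's test 0 of 7 passed and 0 of 7 had an unadjusted p under 0.05, and 0% of all tested transcripts passed. DESeq2 and limma voom called 0 of 7 as well. The log2 changes ran from -0.11 for mt-Nd2 (SE 0.33) to 0.43 for mt-Nd4l (SE 0.32), with a median of 0.18 against 0.00 over all tested transcripts, and each had an edgeR adjusted p of 1.00. The responses of the 2 times were compared by the difference of their log2 changes. It passed for 0 of 7 (0.0348% of all tested transcripts passed), with 0 of 7 at an unadjusted p under 0.05 and 0 of 7 called by DESeq2 or limma voom. These differences ran from -0.35 for mt-Nd4l (SE 0.47) to 0.66 for mt-Nd2 (SE 0.46, edgeR adjusted p = 0.765), and their median was 0.36, or -0.15 without opto 30 min replicate 1.

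The times were then compared within the controls, which asked how far the levels of the set differ without activation. The labels mark the 5 min files as new, so time and deposit cannot be told apart. The 7 summed were at 0.508% ± 0.120 of tags in the 30 min controls and 0.248% ± 0.0517 in the 5 min controls (SD, n = 4 each), and the lowest 30 min control, at 3273 CPM, lay above the highest 5 min control, at 2987. Of the 7 mRNAs, 5 did not overlap between the times, with all 5 min controls lower (2.72% of tested transcripts did not overlap in this direction): mt-Nd1, mt-Nd4l, mt-Nd4, mt-Nd5 and mt-Nd6. The exceptions were mt-Nd2, where 5 min replicate 2 (523 CPM) lay above 30 min replicate 2 (509 CPM), and mt-Nd3. Mean depth differed little between these groups, with a geometric mean of 140104 tags at 30 min and 132936 at 5 min. Single libraries differed more, from 81588 to 192471 tags at 30 min and from 40173 to 341445 at 5 min.

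After adjustment the difference between the control times did not pass in the main test. In edgeR's test 0 of 7 passed an adjusted p of 0.05 (0.174% of all tested transcripts passed), although 6 of 7 had an unadjusted p under 0.05, against 8.92% of all tested transcripts. All 7 estimates were below 0, from -1.33 for mt-Nd6 to -0.35 for mt-Nd3, with a median of -1.06 against 0.02 over all tested transcripts, and 0.975% of these lay below that median. Mt-Nd6 had a log2 change of -1.33 (SE 0.34, edgeR adjusted p = 0.145), from 382 ± 73.2 CPM at 30 min to 174 ± 77.8 at 5 min (SD, n = 4). Mt-Nd2 had -1.20 (SE 0.32, edgeR adjusted p = 0.147), mt-Nd5 -1.15 (SE 0.35, 0.256), mt-Nd4 -1.06 (SE 0.32, 0.256), mt-Nd1 -1.03 (SE 0.27, 0.147) and mt-Nd4l -0.96 (SE 0.31, 0.281). The call depended on the setting. With only the 8 control libraries in the fit 5 of 7 passed (mt-Nd1, mt-Nd2, mt-Nd4, mt-Nd5 and mt-Nd6, edgeR adjusted p from 0.0128 to 0.0239), against 0.582% of the transcripts tested in that fit. With limma voom 3 passed (mt-Nd1, mt-Nd2 and mt-Nd6, against 0.453% of transcripts), and with the library total as a covariate 2 (mt-Nd2 and mt-Nd6, against 0.313%). Without control 30 min replicate 2, the lowest of its group, mt-Nd2 passed (edgeR adjusted p = 0.0349, against 0.296% of transcripts), and DESeq2 called 0 of 7.

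Within the opto libraries 3 of 7 mRNAs were lower at 5 min than at 30 min, against 0.139% of all tested transcripts that passed in this direction and 0.244% in either. Mt-Nd2, an antiporter-like subunit, was lower at 5 min by 1.87 log2 units (SE 0.34, edgeR adjusted p = 0.00874), at 367 ± 110 CPM against 1399 ± 969 at 30 min (SD, n = 4). Mt-Nd4 was lower by 1.54 (SE 0.34, edgeR adjusted p = 0.0401) and mt-Nd1 by 1.39 (SE 0.30, edgeR adjusted p = 0.0398). Mt-Nd6 had -1.48 (SE 0.38) and mt-Nd5 -1.40 (SE 0.37), each with an edgeR adjusted p of 0.0654, and mt-Nd3 and mt-Nd4l had -0.95 (SE 0.55) and -0.61 (SE 0.36). The groups did not overlap for mt-Nd1, whose lowest 30 min library (442 CPM) lay above the highest 5 min library (407 CPM), nor for mt-Nd2 (680.4 and 478 CPM), while 2.96% of all tested transcripts did not overlap in this direction. The other 5 overlapped, and for mt-Nd4, mt-Nd5 and mt-Nd6 it was opto 30 min replicate 2 alone that lay inside the 5 min range. The median of the 7 was -1.40, against 0.02 over all tested transcripts. The control libraries differed in the same direction, with a median of -1.06 for the 7, and here too time and deposit cannot be told apart.

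These calls were not stable. Without opto 30 min replicate 1 only mt-Nd2 passed (log2 change -1.38, edgeR adjusted p = 0.0437, against 0.215% of transcripts), and mt-Nd1 and mt-Nd4 had edgeR adjusted p of 0.0786 and 0.105. None of the 7 passed without opto 30 min replicate 4, opto 5 min replicate 1 or opto 5 min replicate 3, and the smallest edgeR adjusted p, that of mt-Nd2, was 0.0786, 0.0971 and 0.0806. In each of these fits 5 of 7 had an unadjusted p under 0.05, against at most 13.4% of the transcripts tested. Without opto 30 min replicate 2 or opto 5 min replicate 4, 5 of 7 passed in edgeR's test (mt-Nd1, mt-Nd2, mt-Nd4, mt-Nd5 and mt-Nd6), against 0.728% and 1.66% of transcripts. The same 5 passed by DESeq2 (1.11% of all transcripts) and limma voom (3.27%). DESeq2 gave no adjusted p for mt-Nd3 and mt-Nd4l, and its percent is of all transcripts put into the fit, with or without an adjusted p. Without opto 5 min replicate 2 the edgeR adjusted p of mt-Nd4 was 0.0504. The opto libraries of the 2 times differed in depth, with geometric means of 41825 and 142683 tags, and with the library total as a covariate 0 of 7 and 0% of all transcripts passed in edgeR's test, with 4 of 7 at an unadjusted p under 0.05 (10.3% of all transcripts) and a median log2 change of -0.79. In raw tags 6 of 7 were above 0 and mt-Nd2 was at -0.12, with a median of 0.27 against 1.57 over all tested transcripts.

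**Figure D3:**
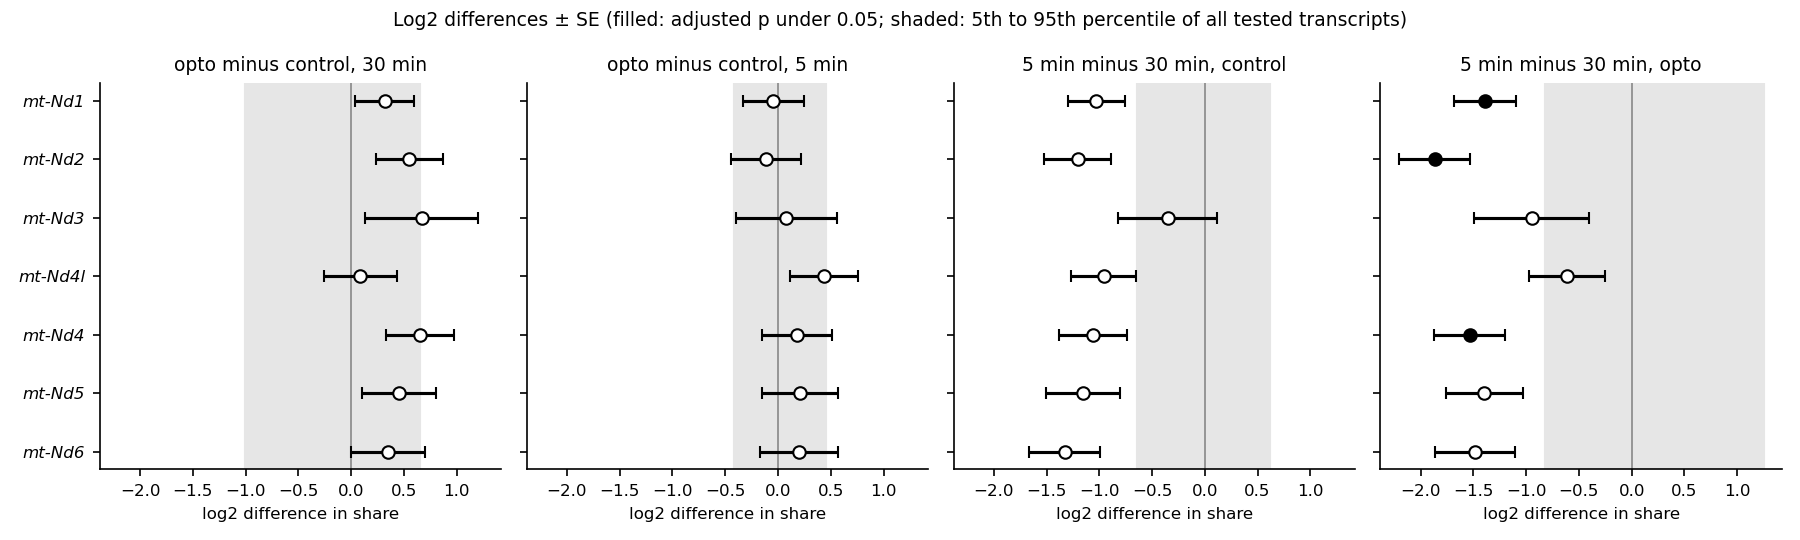
Log2 difference in share (horizontal axis) of each mRNA (vertical axis) in 4 comparisons; points are edgeR estimates with SE bars, filled points passed an adjusted p of 0.05, and grey bands hold the 5th to 95th percentile of the 2871 tested transcripts. At 5 min opto and control differ by at most 0.43, whereas most estimates between the times lie beyond the grey band, from -1.87 to -0.35, with mt-Nd1, mt-Nd2 and mt-Nd4 filled in the opto panel.

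Dependence on the library total was tested as the slope of the log2 share on the log2 of all tags in the library, within the 4 Cre-positive groups, where 0 means a share that does not move with the total and -1 a tag number that does not move with it. All 7 slopes were below 0, from -0.58 for mt-Nd3 to -0.14 for mt-Nd4l, with a median of -0.38 against 0.01 over all tested transcripts. In edgeR's test 0 of 7 passed (0.522% of all tested transcripts passed, all with slopes below 0), and 6 of 7 had an unadjusted p under 0.05, against 7.98% of all tested transcripts. DESeq2 and limma voom also called 0 of 7. The slope of mt-Nd2 was -0.42 (SE 0.11, edgeR adjusted p = 0.103), that of mt-Nd6 -0.42 (SE 0.13, 0.204), of mt-Nd5 -0.38 (SE 0.13, 0.269), of mt-Nd4 -0.34 (SE 0.12, 0.284) and of mt-Nd1 -0.24 (SE 0.11, 0.566). The totals of the Cre-positive libraries spanned 16.7-fold. For the 6 mRNAs with tags in all of them, tags spanned 7.85-fold for mt-Nd2, 10.2-fold for mt-Nd4 and 10.9-fold for mt-Nd1. They spanned 11-fold for mt-Nd4l, 16-fold for mt-Nd6 and 18.6-fold for mt-Nd5. Each span is the highest over the lowest count in any group. The spans thus also hold differences between the groups, and their extremes need not be the deepest and shallowest libraries, so they do not measure the slope.

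The slopes moved with single libraries. Without opto 30 min replicate 1, which is both the shallowest and the highest in share, the median slope was -0.23, with 3 of 7 at an unadjusted p under 0.05, against 8.32% of the transcripts tested. Without opto 30 min replicate 2, shallow but low in share, 4 of 7 passed in edgeR's test (mt-Nd2, mt-Nd3, mt-Nd5 and mt-Nd6, adjusted p from 0.00804 to 0.0222), against 0.941% of the transcripts tested. Without both of these, the 2 libraries farthest from the median total on a log scale, the median slope was -0.33 with 0 of 7 passing and 5 of 7 at an unadjusted p under 0.05 (8.80% of transcripts). Fitted on each time alone, all 7 slopes were again below 0, with medians of -0.54 at 30 min and -0.28 at 5 min and 0 of 7 passing in edgeR's test (5 and 3 of 7 at an unadjusted p under 0.05, against 6.53% and 12.3% of transcripts). With no group terms in the model 5 of 7 passed (mt-Nd2, mt-Nd3, mt-Nd4, mt-Nd5 and mt-Nd6, against 2.40% of all tested transcripts), but the slope then also holds the differences between the groups.

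**Figure D4:**
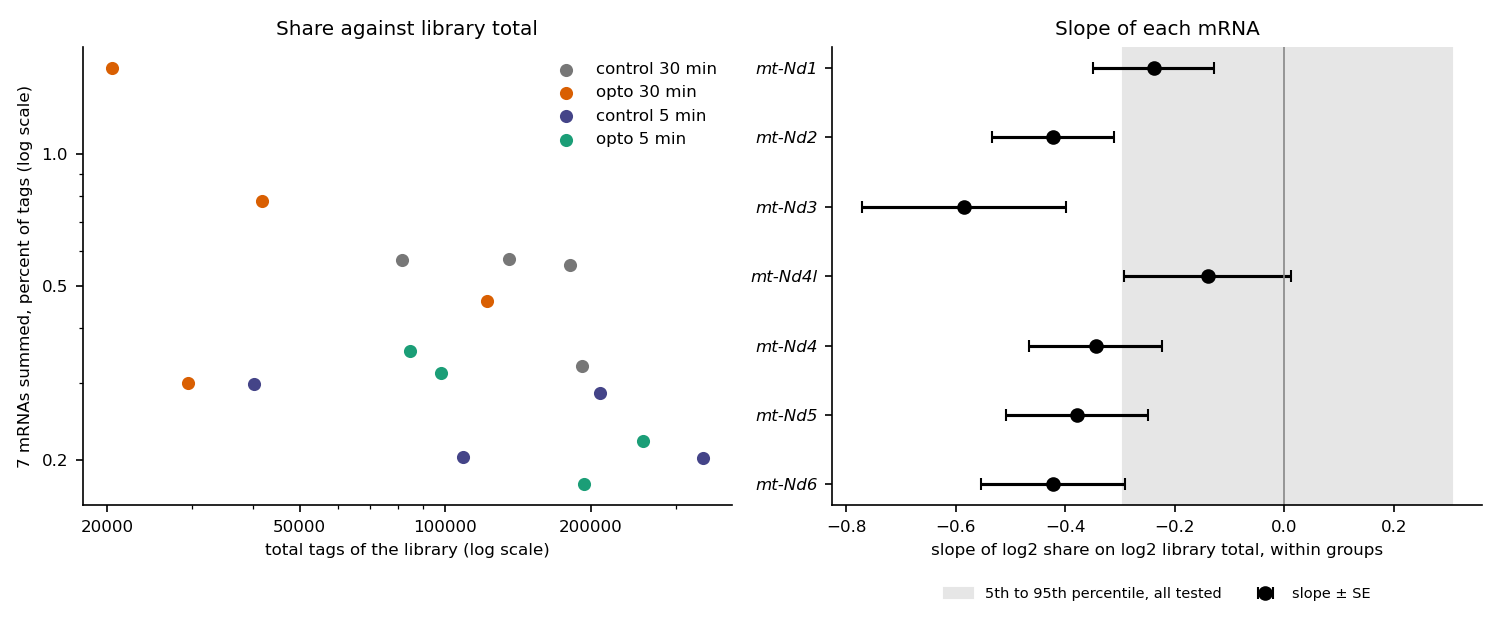
Left, the percent of tags on the 7 mRNAs summed (vertical axis) against the total tags of the library (horizontal axis), both on log scales, for the 16 Cre-positive libraries coloured by group; right, the slope of each mRNA within groups with its SE, over a grey band that holds the 5th to 95th percentile of all tested transcripts. All 7 slopes lie below 0, from -0.58 to -0.14, and opto 30 min replicate 1 is the point at 20456 tags and 1.57%.

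The noCre libraries gave the background of the purification, and the set was part of it at a low tag number. Replicate 3 held 12 tags on the 7 mRNAs of its 5557, a share of 0.216% (95% Wilson interval 0.124 to 0.377%), and replicates 1 and 2 held 0 of 887 and 0 of 34, which allow shares of up to 0.338% and 8.82%. These intervals and limits cover counting error only. The share in replicate 3 lay inside the range of the 8 control libraries, 0.202% to 0.574%, so at this depth background and control were not told apart by share in that library. Shares leave out how many tags a library yielded. In tag numbers replicate 3 held 12 on the 7 mRNAs, and the control libraries held 120 to 1010. The 12 tags were 5 on mt-Nd1, 2 each on mt-Nd2 and mt-Nd5, and 1 each on mt-Nd3, mt-Nd4 and mt-Nd6, with 0 on mt-Nd4l. Pooled, noCre had 12 of 6478 tags, or 0.185% (95% Wilson interval 0.106 to 0.324%), against 4513 of 1290149, or 0.3498%, in the controls, a ratio of 0.530. The same ratio for the summed share of all tested transcripts was 0.917. The pooled control share of the 7 lay above the pooled noCre interval, but that interval covers counting error only and all 12 tags came from replicate 3.

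The background was next set against the controls for each member. Mt-Nd4 had 1 noCre tag, or 0.0154% (95% Wilson interval 0.00273 to 0.0874%), below its 0.108% in the pooled controls, with the control share above the interval. Mt-Nd5 had 2, or 0.0309% (0.00847 to 0.113%) against 0.0867%. Mt-Nd1 had 5, or 0.0772% (0.0330 to 0.181%) against 0.0503%. For mt-Nd4l the 0 noCre tags allow a share of up to 0.0463%, which is above its control share of 0.0119%. For mt-Nd1, mt-Nd2, mt-Nd3, mt-Nd5 and mt-Nd6 the control share lay inside the noCre interval. In edgeR's test of noCre against the controls, scaled by library totals, 0 of 7 passed with 0 of 7 at an unadjusted p under 0.05 and 0 of 7 called by limma voom (0.627% of all tested transcripts passed, all higher in noCre). With TMM over the 19 libraries mt-Nd4 and mt-Nd5 passed as lower in noCre, with 14.4% of all tested transcripts passing. Of all tested transcripts 48.2% had 0 noCre tags, and 35.7% had a larger share in pooled noCre than in the pooled controls, as 2 of the 7 mRNAs did (mt-Nd1 and mt-Nd3).

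The transcripts whose levels most resembled those of the set were named by the Pearson correlation of their log2 CPM with the mean of the 7 over the 16 Cre-positive libraries, which share their depth and library. Outside the set, ENSMUST00000187714 came first (r = 0.970) and ENSMUST00000082402 second (r = 0.953), and no table used here pairs either with a gene. The first had 1706 ± 1350 CPM in opto and 972 ± 283 in control at 30 min, and 572 ± 263 and 513 ± 93.1 at 5 min (SD, n = 4 each), with 0 noCre tags. It held 54.5% to 75.7% as many tags as mt-Nd4 in each Cre-positive library, so tags shared with mt-Nd4 were not told apart from its own. The second had 3014 ± 1454 and 2313 ± 295 CPM at 30 min, and 1678 ± 642 and 1510 ± 383 at 5 min (SD, n = 4 each). Their slopes on the library total were also below 0, at -0.40 and -0.30 (edgeR adjusted p = 0.252 and 0.292). Their log2 changes from the 30 min to the 5 min controls were -0.95 and -0.66. Such values were thus not particular to the 7 mRNAs, though both transcripts were picked for likeness over these same libraries.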

How the data were processed

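FMRP CLIP tags were measured in 19 libraries of mouse CA1 tissue, cloned by the BrdU-CLIP method per the labels' protocols. Each deposited file holds 1 library as a count of tags for every Ensembl transcript with at least 1, not normalized, per the file headers. Cutadapt, STAR and the mm10 build are named in the submitters' processing notes, and versions, duplicate removal, strand and the handling of tags shared by transcripts are not given in the sources used here. If duplicates were kept, tags are less independent than the tests assume, and shared tags may be divided or repeated between transcripts.

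Groups came from titles and labels. Transcripts were filtered with filterByExpr (minimum count 10, minimum total 15), which kept 2871 transcripts and all 7 members, and tested with edgeR 4.0.16 in R 4.3.3 by the quasi-likelihood test with TMM scaling on the 16 Cre-positive libraries, with Benjamini-Hochberg adjustment over all 2871 and a threshold of 0.05. The biological coefficient of variation was 0.192. The noCre test used all 19 libraries scaled by their totals. Intervals for shares are 95% Wilson intervals, and a count of 0 allows up to 3 tags. The fits were tested on simulated data. Tables and plots used Python 3.11.15, pandas 2.3.3, numpy 2.4.6, scipy 1.17.1 and matplotlib 3.10.9.

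All 7 members are named whatever their values, with the 2 transcripts most like them in log2 CPM (prior count 2). The members and lists were chosen with earlier results of these data known. Lists of nuclear complex I subunits, other mitochondrial mRNAs, mitochondrial ribosomal RNAs and cell type markers were not analysed here, since no table used here pairs the identifiers with symbols, and no sequence is printed. Member positions come from the RefSeq table of GRCm38.p6, matched by symbol for all 7.

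The labels do not say that replicate numbers pair the libraries. Deviations of same-numbered opto and control libraries from their group means had correlations between 0.202 and 0.689 in the 8 pairs when the 334 transcripts averaging 50 tags or more were used, and between 0.0915 and 0.332 with all 2871. The reported fits have no replicate block, and fits with one are alternatives. Alternatives were other scaling and filters, DESeq2 1.42.0, voom from limma 3.58.1 with sample weights, the replicate block, the library total as a covariate, counts thinned to 20456 tags, other sets of libraries, and leaving out each library in turn.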

Additional observations from a re-analysis of the deposited data

Results flagged for a closer look

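The level of mt-Nd5 in control 30 min replicate 2 lay far from the rest of its group. It was 785 CPM, and the other 3 libraries lay between 1436 and 1459 CPM. The gap to the nearest of them was 0.966 of the range of the group, above Dixon's 95% critical value for 4 samples. This library held 192471 tags, the most of its group, and it was also the lowest of the 30 min controls for the other 6 mRNAs. Of 28 groups examined (7 mRNAs in 4 groups) 1 stood out in this way, where chance gives about 1 in 20.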

How the results depend on the processing

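The lower shares of mt-Nd2, mt-Nd4 and mt-Nd1 in opto 5 min than in opto 30 min were the only differences that passed in the main fits. In that comparison 0 of 7 passed with raw tags, 1 with a mean of at least 20 tags, 5 by DESeq2 and 5 by limma voom. With the library total as a covariate 0 passed and with thinned counts 1, while leaving out 1 library at a time gave 0 to 5. The filter of 20 tags left 5 members to test, thinning left 4, and DESeq2 gave no adjusted p for mt-Nd3 and mt-Nd4l. Between the control times 0 passed in the main fit, 3 by limma voom, 2 with the library total as a covariate, 5 with only these 8 libraries and 0 to 1 with 1 library left out. For the dependence on the total 5 passed with no group terms and 0 to 4 with 1 library left out. For noCre against the controls 2 passed with TMM and 7 with raw tags, where 2870 of all 2871 transcripts also passed. All other settings gave counts within 1.5 times the main one.

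Estimates that changed sign had not passed, except those of mt-Nd1 and mt-Nd4 between the opto times. The cause was not tested. Raw tags moved the median of all transcripts by over 0.1, from -0.02 to -1.46 for opto against control at 30 min, and gave -1.25 (mt-Nd1), -1.07 (mt-Nd2), -0.95 (mt-Nd3), -1.36 (mt-Nd4l), -1.08 (mt-Nd4), -1.22 (mt-Nd5) and -1.22 (mt-Nd6) at 30 min, -0.069 (mt-Nd3), -0.095 (mt-Nd4) and -0.041 (mt-Nd5) at 5 min, -1.08 (mt-Nd1), -0.78 (mt-Nd2), -0.88 (mt-Nd3), -0.98 (mt-Nd4), -1.17 (mt-Nd5) and -1.28 (mt-Nd6) for the difference of the responses, 0.27 (mt-Nd1), 0.79 (mt-Nd3), 0.95 (mt-Nd4l), 0.21 (mt-Nd4), 0.29 (mt-Nd5) and 0.16 (mt-Nd6) between the opto times and -5.45 (mt-Nd1) and -5.18 (mt-Nd3) for noCre. With the library total as a covariate the values were -0.071 (mt-Nd1), -0.16 (mt-Nd2), -0.26 (mt-Nd3), -0.097 (mt-Nd4l), -0.22 (mt-Nd5) and -0.31 (mt-Nd6) at 30 min, -0.026 (mt-Nd3) at 5 min, -0.23 (mt-Nd3), -0.087 (mt-Nd4), -0.34 (mt-Nd5) and -0.43 (mt-Nd6) for the difference of the responses and 0.049 (mt-Nd3) between the opto times. By limma voom they were -0.32 (mt-Nd3) at 30 min, -0.36 (mt-Nd3), -0.033 (mt-Nd5) and -0.18 (mt-Nd6) for the difference and 0.13 (mt-Nd2), 2.09 (mt-Nd4l) and 1.28 (mt-Nd6) for noCre. With no filter they were -0.032 (mt-Nd1) and -0.19 (mt-Nd4l) at 30 min, -0.12 (mt-Nd5) and -0.13 (mt-Nd6) for the difference and 0.017 (mt-Nd1) and 0.12 (mt-Nd4l) for the slope. Thinned counts gave -0.060 (mt-Nd4) at 5 min, and TMM gave -1.03 (mt-Nd1) and -1.09 (mt-Nd3) for noCre. With 1 library left out the ranges were -0.0051 to 0.52 (mt-Nd1), -0.066 to 1.34 (mt-Nd3), -0.085 to 0.22 (mt-Nd4l), -0.13 to 0.76 (mt-Nd5) and -0.13 to 0.60 (mt-Nd6) at 30 min, -0.17 to 0.15 (mt-Nd1), -0.26 to 0.066 (mt-Nd2), -0.15 to 0.23 (mt-Nd3), -0.030 to 0.38 (mt-Nd4) and -0.058 to 0.40 (mt-Nd6) at 5 min, -0.15 to 1.26 (mt-Nd3), -0.071 to 0.70 (mt-Nd4), -0.34 to 0.54 (mt-Nd5) and -0.33 to 0.41 (mt-Nd6) for the difference and -8.89 to 0.84 (mt-Nd1) and -6.67 to 0.75 (mt-Nd3) for noCre.

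With the replicate number as a block 0 of 7 passed at 30 min, at 5 min, for the difference and for the slope, so the block changed no call. In the blocked fit at 30 min mt-Nd4 had 0.48 and mt-Nd2 0.45, with unadjusted p of 0.0148 and 0.0200 (edgeR adjusted p = 0.373 and 0.409), and values of other sign were -0.018 (mt-Nd4l) at 30 min and 0.00032 (mt-Nd1) at 5 min. With the block and the library total as a covariate they were -0.14 (mt-Nd1), -0.060 (mt-Nd2), -0.17 (mt-Nd3), -0.27 (mt-Nd4l) and -0.11 (mt-Nd5) at 30 min and -0.12 (mt-Nd1), -0.21 (mt-Nd3), -0.12 (mt-Nd4), -0.26 (mt-Nd5) and -0.18 (mt-Nd6) for the difference. Depth limits the set most in noCre, where all 12 tags come from replicate 3, and in mt-Nd3 and mt-Nd4l, with at most 33 tags in a library.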
